A study of Mus musculus with 6 samples.

Results

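The Hippo kinase cascade was described at the RNA level through 10 genes, *Stk3*, *Stk4*, *Sav1*, *Lats1*, *Lats2*, *Mob1a*, *Mob1b*, *Nf2*, *Wwc1* and *Wwc2*, which were chosen by name among the 54532 Ensembl genes of the count table. All 10 were found there. The counts came from poly-A RNA of cardiomyocyte (CM) nuclei, which were enriched from hearts of wild-type ICR mice by pulldown of PCM-1, a protein of the CM nuclear surface. The mice had received 1e+11 viral genomes of AAV9 under the skin at postnatal day 6 (P6), and hearts were collected at P9, 3 d later. The virus carried GFP, YAP6SA or YAP5SA behind the cardiac troponin T (cTnT) promoter, which directs expression to CMs. Batches 1 and 2 each held 1 library of every group, and the labels name 2 hearts per virus. No library was free of AAV9, so GFP is the only control.

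In the Hippo pathway, the kinases MST2 and MST1 (genes *Stk3* and *Stk4*), held by the adapter SAV1, phosphorylate the kinases LATS1 and LATS2 and their coactivators MOB1A and MOB1B. NF2 and the WWC proteins (WWC1 is also known as KIBRA) bring the kinases together at the membrane. Active LATS phosphorylates YAP on serines, which keeps YAP out of the nucleus, and in the postnatal heart this cascade restrains CM proliferation. YAP5SA carries alanines in place of the serines that LATS phosphorylates and therefore escapes the cascade. YAP6SA carries the same changes and a further one at the serine through which YAP binds TEAD, the DNA-binding partner of YAP. *Lats2* and *Nf2* are known from other cells as genes that YAP can raise, so the question asked here was whether the transcripts of the cascade differed in CMs that carried a YAP which the cascade cannot phosphorylate.

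In YAP5SA OE CMs, *Lats2* was 2.21-fold and *Wwc1* 46.1-fold higher than in GFP, and *Mob1b* was 0.702-fold of GFP (ratio of counts scaled to library size, n = 2 libraries per group). The difference of *Mob1b* was close to the threshold and depended on the fit. In YAP6SA OE CMs none of the 10 genes passed the threshold against GFP, where 0.045% of all genes tested passed. The remaining 7 genes were not past the threshold in any comparison (edgeR quasi-likelihood test, adjusted p under 0.05). The differences of *Lats2* and *Mob1b* were also past the threshold when YAP5SA was compared directly with YAP6SA. *Wwc1* was kept for testing only through its level in YAP5SA, so its values are descriptions and not tests. Its ratio of YAP5SA to GFP was 18.2 in batch 1 and 82.2 in batch 2.

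The libraries held 14552847 to 19615627 counts on genes. Of the reads in a library, 5.79% to 6.31% could not be assigned because they fell on more than 1 gene. The groups could not be checked by the overexpressed gene. *Yap1* stood at 134 ± 6.66 CPM (counts scaled to library size by TMM; n = 2 libraries, ± SD) with GFP, at 126 ± 5.81 with YAP6SA and at 120 ± 25.4 with YAP5SA, with log2 fold changes against GFP of -0.09 and -0.17 that were not past the threshold (adjusted p = 0.952 and 0.495). Whether transcripts of the AAV9 cassette were counted on *Yap1* was not tested. CM markers were far above the markers of other cells in every library. The 10 markers, among them *Tnnt2*, *Myh6* and *Ttn*, summed to 59581 to 79484 CPM in GFP, 55628 to 72813 in YAP6SA and 35359 to 48610 in YAP5SA, against 261 to 382 CPM over all libraries for the 8 endothelial markers and 860 to 1777 for the 8 fibroblast markers.

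Per kilobase of exon that no other gene shares, the kinases at the end of the cascade were its most abundant transcripts. For *Lats2* this length was 4016 of 6971 exon bases, and its place in the order depends on that length. Whether reads on its other exon bases were left out of its counts was not checked. In GFP, *Lats1* stood at 18.8 ± 0.754 RPKM (CPM per kilobase of exon sequence that no other gene shares; mean ± SD, n = 2), *Lats2* at 11.4 ± 1.88, *Nf2* at 8.35 ± 1.45, *Wwc2* at 6.98 ± 0.110, *Sav1* at 5.03 ± 0.390 and *Mob1b* at 3.54 ± 0.333. *Stk4* with 2.73 ± 0.128 and *Mob1a* with 2.68 ± 0.434 overlapped, so their order is not resolved. *Stk3* followed at 1.26 ± 0.353. *Wwc1* was last with 0.173 ± 0.0400 RPKM, which was percentile 1.13 of the genes kept for testing. The order in YAP6SA differed only below *Sav1*, where *Mob1a* stood above *Stk4* and *Mob1b* overlapped with *Sav1*. In YAP5SA, *Lats2* came first on this scale with 25.4 ± 1.78 RPKM, above *Lats1* with 15.6 ± 0.693. In CPM, not scaled to length, *Lats1* was above *Lats2* in both YAP5SA libraries (117 and 110 against 96.9 and 107). *Wwc1* in YAP5SA reached the range of *Nf2*, *Wwc2* and *Sav1* (7.78 ± 5.83, 8.37 ± 0.843, 7.74 ± 0.729 and 6.93 ± 0.505 RPKM) and could not be ordered among them. *Nf2* was above *Sav1*, and *Wwc2* overlapped with both.

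**Figure D1:**
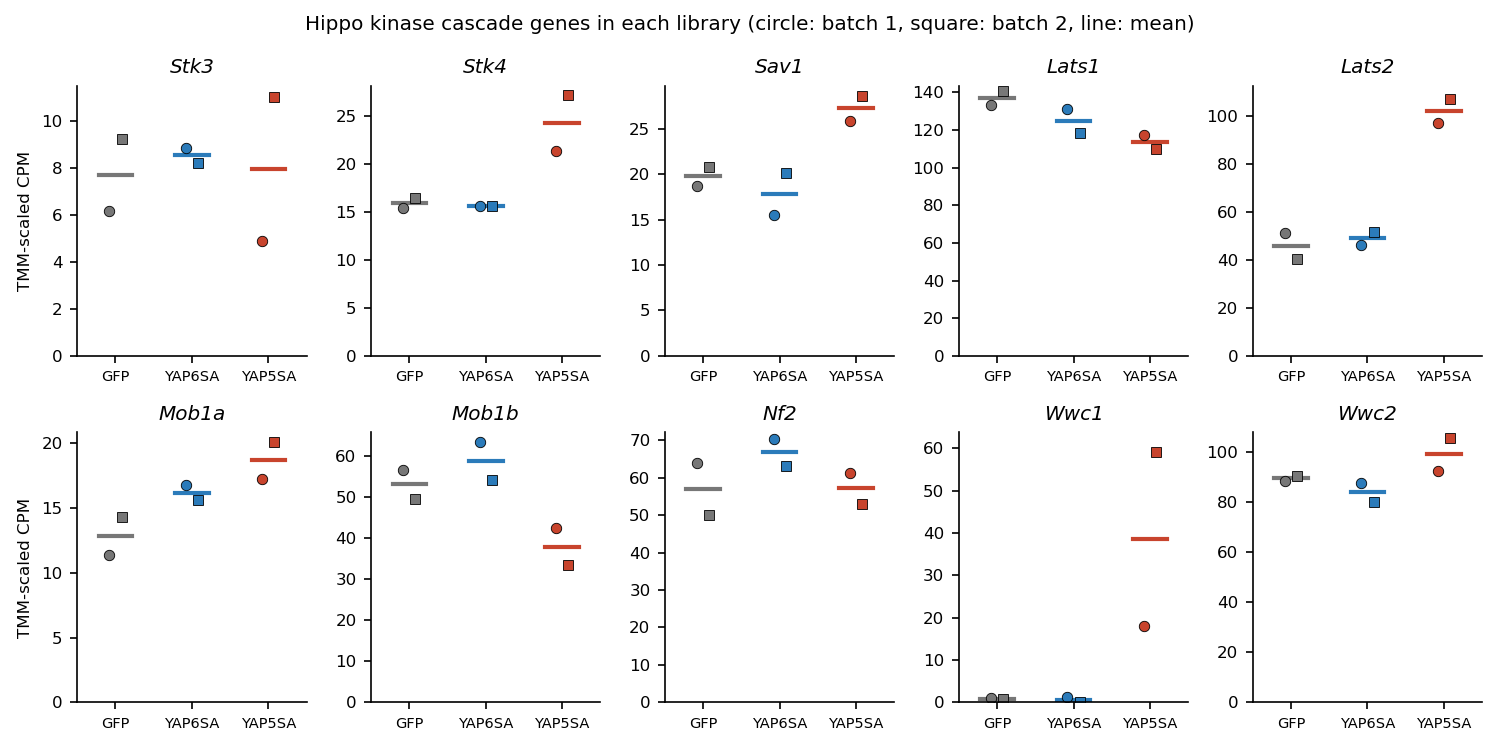
TMM-scaled CPM (linear axis from 0, own scale in each panel) of the 10 Hippo kinase cascade genes in each library. Circles are batch 1, squares batch 2 and horizontal lines group means (n = 2). The YAP5SA libraries stand above all others for *Lats2* (96.9 and 107 CPM) and *Wwc1* (18.2 and 59.0 CPM) and below them for *Mob1b* (42.6 and 33.5 CPM).

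Promoter sequence was examined for TEAD and AP-1 binding motifs, because both factors are known partners of YAP at chromatin. RefSeq promoters of GRCm38.p6, from 250 bases before to 50 bases after an annotated start, were given for 9 of the 10 genes and not for *Stk3*. The TEAD core GGAATG, searched on both strands, lay in a promoter of *Wwc2* (at -203, -94 and -79 from the start), *Sav1* (at -106), *Mob1a* (at -209) and *Lats2* (at +5). It was not in the promoters of *Wwc1*, *Stk4*, *Lats1*, *Mob1b* or *Nf2*. Of all 27025 genes with a promoter in the table, 16.6% held the core, and 14.7% of all 32851 promoters did. The AP-1 core TGANTCA was in 0 of the 11 promoters of these genes and in 7.81% of all promoters. The windows with a match are shown 5′ to 3′ on the strand of the gene, with the core or its reverse complement CATTCC in capitals, next to the bases directly before the start of *Wwc1*, the gene with the largest difference.
Wwc1, chr11:35980528-35980627 (minus strand): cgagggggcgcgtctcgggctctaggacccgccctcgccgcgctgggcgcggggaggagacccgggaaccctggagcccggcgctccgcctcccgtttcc
Wwc2, chr8:47990615-47990754 (minus strand): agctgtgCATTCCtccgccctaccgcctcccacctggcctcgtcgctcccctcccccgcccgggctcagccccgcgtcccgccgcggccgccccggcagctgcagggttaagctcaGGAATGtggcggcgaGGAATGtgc
Lats2, chr14:57746109-57746132 (minus strand): acgtgacgcccgtGGAATGccaac
Sav1, chr12:69987083-69987122 (minus strand): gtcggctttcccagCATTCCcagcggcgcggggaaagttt
Mob1a, chr6:83325814-83325853 (plus strand): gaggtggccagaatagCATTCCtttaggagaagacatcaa
A match is a run of letters and does not show that TEAD was bound there, and the absence of a match applies to these windows alone. Of the 3 genes called in YAP5SA, *Lats2* had a match in its promoter and *Wwc1* and *Mob1b* had none, whereas *Wwc2*, with 3 matches, was not called.

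To ask whether the cascade changed with YAP6SA, the 2 YAP6SA libraries were compared with the 2 GFP libraries. Of the 10 genes, 0 passed the threshold, and 0 had an unadjusted p under 0.05 (edgeR quasi-likelihood test). Among all 13323 genes kept for testing, 0.045% passed, all of them higher, and 5.93% had an unadjusted p under 0.05. DESeq2, limma-voom and edgeR's likelihood ratio test also called 0 of the 10. The median log2 fold change of the 10 genes was 0.04, beside 0.00 over all genes tested. The intervals show what could have been missed. For *Lats2* the log2 fold change was 0.10 with a 95% interval of -0.29 to 0.48, for *Nf2* 0.24 (-0.10 to 0.57), and for *Mob1a* 0.35 (-0.17 to 0.86). For *Stk3*, with 117 to 174 counts in these libraries, the interval ran from -0.57 to 0.98. For *Wwc1* it ran from -2.48 to 1.73, so that neither a rise nor a fall of several fold could be seen with these libraries. The YAP6SA and GFP libraries did not overlap for *Mob1a*, which was higher in YAP6SA, and for *Lats1* and *Wwc2*, which were lower, that is for 1 gene higher and 2 lower of 10. Among all genes, 17.3% and 17% were separated in this way.

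YAP5SA was then compared with the same GFP libraries. Of the 10 genes, 2 were higher and 1 was lower past the threshold, and 6 had an unadjusted p under 0.05. Among all genes tested, 12.8% were called higher and 9.18% lower (22% in either direction), and 36.4% had an unadjusted p under 0.05, so the number of calls in the cascade was close to that background. *Wwc1* was kept for testing only through its level in YAP5SA, since its median log2 CPM was under the minimum of 1 in GFP and in YAP6SA, and a gene kept in this way had to differ. The other 9 genes were over the minimum in every group. The median log2 fold change of the 10 genes was 0.31, beside -0.00314 over all genes. *Wwc1* is part of this median and of the counts in this paragraph. Among the other 9 genes the middle value was that of *Wwc2*, 0.15. Libraries did not overlap for 6 genes that were higher (*Stk4*, *Sav1*, *Lats2*, *Mob1a*, *Wwc1*, *Wwc2*) and 2 that were lower (*Lats1*, *Mob1b*), where 31.2% and 29.7% of all genes were separated.

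**Figure D2:**
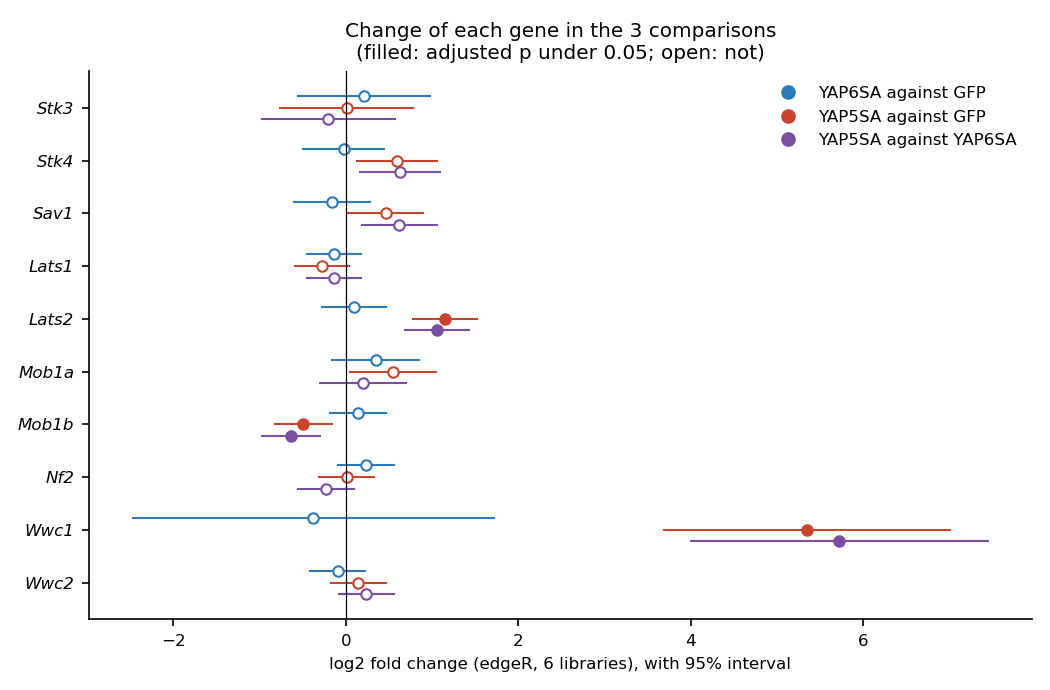
Log2 fold change of each gene (x axis, edgeR, all 6 libraries) with its 95% interval, in the 3 comparisons. Filled points passed an adjusted p of 0.05 and open points did not. *Lats2* and *Wwc1* are filled to the right of 0 and *Mob1b* to the left in both comparisons of YAP5SA, and no point of YAP6SA against GFP is filled. *Wwc1* was kept for testing only through YAP5SA, so its filled points are not tests.

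Among the MST kinases and their adapter, no gene passed the threshold. *Stk4*, which encodes MST1, had 15.5 and 16.5 CPM in GFP, 15.7 and 15.7 in YAP6SA, and 21.4 and 27.2 in YAP5SA. Both YAP5SA libraries were above the other 4. Its log2 fold change was 0.60 against GFP (SE 0.21, adjusted p = 0.0710) and 0.62 against YAP6SA (SE 0.21, adjusted p = 0.0787), and without the YAP5SA library of batch 1 the call against GFP passed the threshold (0.75, adjusted p = 0.0219). *Sav1*, the scaffold that binds MST kinases, had 18.7 and 20.8 CPM in GFP, 15.5 and 20.1 in YAP6SA, and 25.8 and 28.6 in YAP5SA. It too was higher in both YAP5SA libraries, with log2 fold changes of 0.46 against GFP (adjusted p = 0.125) and 0.62 against YAP6SA (adjusted p = 0.0654), neither past the threshold. *Sav1* shares 1336 of its exon bases with *Atl1* on the opposite strand, and the libraries were not directional, so reads of the shared stretch could not be told apart. *Stk3*, which encodes MST2, had 6.15 and 9.21 CPM in GFP, 8.85 and 8.18 in YAP6SA, and 4.90 and 11.0 in YAP5SA. The YAP5SA libraries thus lay on either side of all others, and its log2 fold change against GFP was 0.01 (95% interval -0.77 to 0.79).

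Of the LATS kinases, which phosphorylate YAP directly, *Lats2* was called and *Lats1* was not. *Lats2* (chromosome 14 of GRCm38, 57689662 to 57758388, minus strand) was counted 973 times in batch 1 and 620 times in batch 2 with GFP. With YAP6SA the counts were 909 and 854, and with YAP5SA 1463 and 1910. Scaled to library size these were 51.2 and 40.5, 46.2 and 51.8, and 96.9 and 107 CPM. The YAP5SA libraries were well above the other 4, among which GFP and YAP6SA overlapped. The group levels were 45.8 ± 7.54, 49.0 ± 3.91 and 102 ± 7.17 CPM (mean ± SD, n = 2). *Lats2* was higher in YAP5SA than in GFP by a log2 fold change of 1.15 (SE 0.17, 95% interval 0.77 to 1.54, adjusted p = 0.00202) and than in YAP6SA by 1.06 (SE 0.17, 0.68 to 1.44, adjusted p = 0.00390). Within the batches, the ratio of YAP5SA to GFP was 1.90 (95% counting interval 1.75 to 2.06) and 2.64 (2.41 to 2.90), and that of YAP5SA to YAP6SA was 2.10 (1.93 to 2.28) and 2.07 (1.91 to 2.24). By size of log2 fold change against GFP, *Lats2* was in place 1064 from the top among 13323 genes, and by p in place 364. In 2955 of its 6971 exon bases, *Lats2* overlaps *Gm49361*, a gene on the same strand in GENCODE M21, for which no counts were found. Whether *Gm49361* was in the annotation used for counting was not checked. If it was, reads that fall on that stretch, in whole or in part, would be ambiguous and left out of the *Lats2* counts in every group.

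*Lats1* (chromosome 10, 7681214 to 7716460, plus strand) had 133 and 141 CPM in GFP, 131 and 118 in YAP6SA, and 117 and 110 in YAP5SA. Its YAP5SA libraries were the lowest 2 of the 6. The log2 fold change against GFP was -0.27 (SE 0.14, 95% interval -0.59 to 0.05, adjusted p = 0.207) and did not pass the threshold.

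The reads of the pair were split as follows. *Lats2* took 27.8% and 22.3% of the reads of both genes with GFP, 26.1% and 30.4% with YAP6SA, and 45.3% and 49.3% with YAP5SA (Wilson 95% intervals 43.6% to 47.0% and 47.8% to 50.9% for the last 2, which cover counting error only). As group means (± SD, n = 2) the share was 25.1% ± 3.85 with GFP, 28.2% ± 3.09 with YAP6SA and 47.3% ± 2.86 with YAP5SA. Per kilobase of unshared exon, the log2 ratio of *Lats2* to *Lats1* was below 0 in all 4 GFP and YAP6SA libraries, between -0.94 and -0.33, and above 0 in both YAP5SA libraries, at 0.59 and 0.82. The sign in YAP5SA depends on the length used for *Lats2*, 4016 of its 6971 exon bases. By counts, *Lats2* stayed below *Lats1* in both YAP5SA libraries (1463 against 1768 and 1910 against 1962), so no reversal within the pair is shown. The shares of the pairs are given as a description, with no test.

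**Figure D3:**
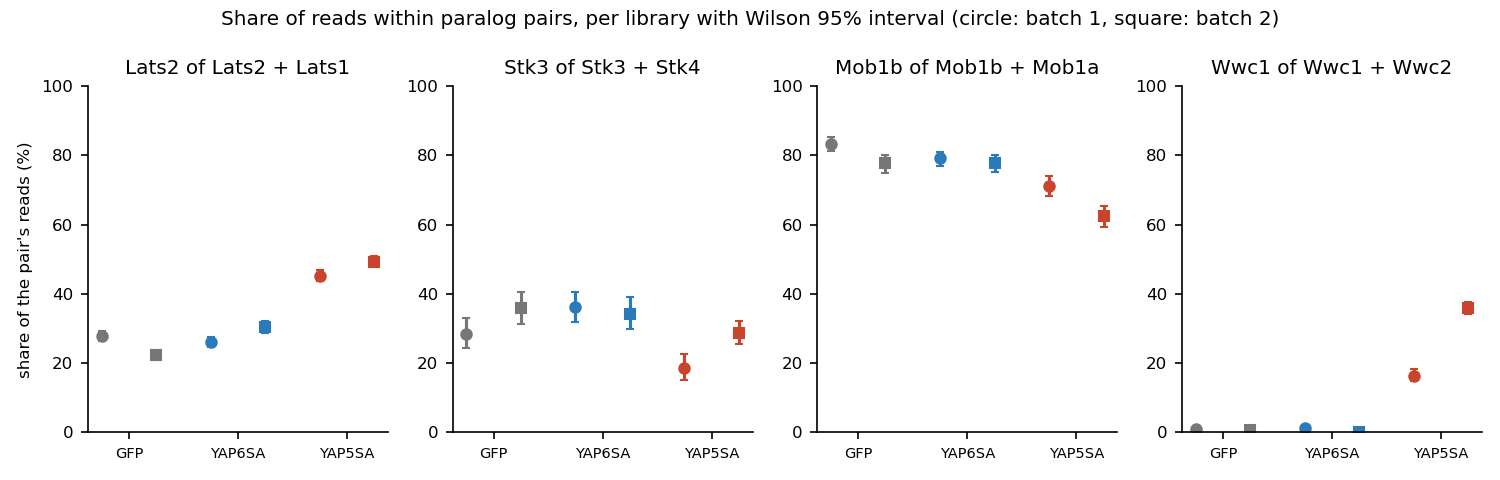
Share of reads (y axis, percent, 0 to 100) that the first gene took of both genes of a pair, in each library, with Wilson 95% intervals. Circles are batch 1 and squares batch 2. The *Lats2* share was 45.3% and 49.3% in YAP5SA and at most 30.4% elsewhere, and the *Wwc1* share was 16.4% and 35.9% in YAP5SA and at most 1.32% elsewhere.

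Of the MOB1 coactivators, which bind LATS and are needed for its activity, *Mob1b* was called and *Mob1a* was not. *Mob1b* (chromosome 5, 88720855 to 88764220, plus strand) had 1080 and 761 counts in GFP, 1247 and 894 in YAP6SA, and 643 and 597 in YAP5SA, or 56.8 and 49.7, 63.4 and 54.2, and 42.6 and 33.5 CPM. Both YAP5SA libraries were below the other 4. *Mob1b* was lower in YAP5SA than in GFP by a log2 fold change of -0.49 (SE 0.15, adjusted p = 0.0460) and than in YAP6SA by -0.63 (SE 0.15, adjusted p = 0.0235). The call against GFP was near the threshold: it passed in 3 of 9 other fits (adjusted p 0.0255 to 0.345 over all alternatives) and in only 1 of the 6 fits that left out a library, the one without the YAP5SA library of batch 1. The call against YAP6SA passed in 8 of 9 other fits and was lost without either YAP6SA library or without the YAP5SA library of batch 2 (adjusted p = 0.130, 0.246 and 0.0656). *Mob1a* had 11.4 and 14.3 CPM in GFP, 16.7 and 15.6 in YAP6SA, and 17.2 and 20.1 in YAP5SA. The GFP libraries were its lowest, and the log2 fold change of YAP5SA against GFP was 0.55 (95% interval 0.04 to 1.06, adjusted p = 0.115), not past the threshold. *Mob1b* took 83.3% and 77.7% of the reads of the pair in GFP, 79.1% and 77.7% in YAP6SA, and 71.2% and 62.5% in YAP5SA. No 50-base stretch of *Mob1a* was found in a transcript of another gene, so reads of both paralogs could be told apart.

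Among the membrane scaffolds, *Wwc1* (chromosome 11, 35838400 to 35980527, minus strand) had the largest difference of the cascade. It was counted 19 and 11 times with GFP, 23 and 1 times with YAP6SA, and 274 and 1053 times with YAP5SA, or 0.999 and 0.718, 1.17 and 0.0606, and 18.2 and 59.0 CPM. Both YAP5SA libraries were far above the other 4, and they differed from each other more than for any other of the 10 genes. Since *Wwc1* was kept for testing only through YAP5SA, its values against both groups are descriptions rather than tests. The log2 fold change of YAP5SA was 5.34 against GFP (SE 0.75) and 5.72 against YAP6SA (SE 0.78). By size of log2 fold change against GFP, it was in place 45 from the top. Within the batches, the ratio of YAP5SA to GFP was 18.2 (95% counting interval 11.4 to 30.7) in batch 1 and 82.2 (45.7 to 165) in batch 2. The ratio to YAP6SA was 15.5 (10.1 to 24.9) in batch 1. In batch 2, where YAP6SA had 1 count, it was 973.5 with an interval from 174 to 3.849e+04. Without the YAP5SA library of batch 2 the log2 fold change against GFP was 3.75, and without that of batch 1 it was 7.05, so 1 library decided its size. Against YAP6SA it was 9.49 without the YAP6SA library of batch 1, 4.29 without that of batch 2, and 7.56 and 4.36 without the YAP5SA libraries of batches 1 and 2.

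*Wwc2*, the paralog of *Wwc1*, had 88.3 and 90.3 CPM in GFP, 87.6 and 79.9 in YAP6SA, and 92.3 and 106 in YAP5SA. The YAP5SA libraries were the highest by a narrow margin, and the log2 fold change against GFP was 0.15 (95% interval -0.18 to 0.48, adjusted p = 0.512). *Wwc1* thus took 1.12% and 0.789% of the reads of the pair in GFP, 1.32% and 0.0758% in YAP6SA, and 16.4% and 35.9% in YAP5SA, and in the YAP5SA library of batch 2 it was the more abundant of the pair per kilobase (log2 ratio 0.53, and -0.98 in that of batch 1). *Nf2*, which encodes Merlin, had 64.0 and 49.95 CPM in GFP, 70.4 and 63.1 in YAP6SA, and 61.2 and 53.1 in YAP5SA. These overlapped between YAP5SA and GFP, and the log2 fold change was 0.01 (95% interval -0.32 to 0.34, adjusted p = 0.972).

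The direct comparison of YAP5SA with YAP6SA, which differ in the TEAD-binding serine, called the 3 genes named above, 2 higher and 1 lower of 10, and 5 had an unadjusted p under 0.05. Among all genes, 9% were higher and 5.68% lower (14.7% in either direction), and 30.8% had an unadjusted p under 0.05. The median log2 fold change of the cascade was 0.22, beside -0.01 over all genes. Libraries did not overlap for 6 genes that were higher and 3 that were lower, where 28.6% and 28.9% of all genes were separated. *Wwc1* was kept for testing only through YAP5SA, so its part in these counts and in the median was set by the filter. For *Lats1*, *Wwc2* and *Nf2* the intervals of this difference were -0.46 to 0.19, -0.09 to 0.57 and -0.56 to 0.11, and for *Mob1a* -0.31 to 0.71. The 3 comparisons share libraries and are not independent of each other.

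Markers of the cell types are given next to these results. The summed CM markers of the YAP5SA libraries were below those of all other libraries, and of 10 markers 7 were not called against GFP, 2 were called lower (*Ryr2* and *Pln*, log2 fold changes of -0.81 and -1.04) and *Nppa*, a natriuretic peptide gene of young and stressed CMs, was called higher (1.18). Macrophage markers summed to 61.6 to 85.0 CPM in GFP, 73.0 to 101 in YAP6SA and 85.9 to 130 in YAP5SA, with 2 of the 7 tested called higher (*C1qa* and *Lyz2*) and 5 not called. Mural markers, of which *Des*, *Abcc9* and *Kcnj8* are also expressed by CMs, summed to 888 to 944 CPM in GFP, 1064 to 1143 in YAP6SA and 658 to 871 in YAP5SA, with *Myh11* called higher and *Abcc9* lower. None of the 8 fibroblast and 8 endothelial markers was called. Within batches, the fibroblast sum was higher with both variants than with GFP (1367, 1777 and 1496 CPM in batch 1 and 860, 984 and 906 in batch 2 for GFP, YAP6SA and YAP5SA), and in YAP6SA against GFP 8 of 8 fibroblast markers had a positive log2 fold change, 3 of them with an unadjusted p under 0.05. Endothelial sums were 327, 382 and 355 CPM in batch 1 and 267, 261 and 285 in batch 2. No marker was at 0 as a group mean. The part of these differences in the changes of *Lats2*, *Wwc1* and *Mob1b* was not tested, and in bulk nuclei more cells of a type cannot be told apart from more RNA per cell.

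Around the 10 genes, 69 other genes of the pathway and a signature of YAP and TEAD targets were counted in 7 lists. In YAP6SA against GFP 0 genes of every list were called, with at most 1 gene of a list at an unadjusted p under 0.05 (0.045% and 5.93% of all genes). The summed level of the target signature described below was 2216 and 2525 CPM with YAP6SA and 1637 and 1667 CPM with GFP, so both YAP6SA libraries were above both GFP libraries. Among its 20 genes tested, libraries did not overlap for 3 that were higher and 3 that were lower, beside 17.3% and 17% of all genes. Their median log2 fold change was 0.09, beside 0.00 over all genes. The sum therefore does not show that the genes rose as a group. The lists were tested with edgeR's quasi-likelihood test only. The counts in YAP5SA against GFP are to be read beside the 12.8% higher and 9.18% lower of all genes tested, and no list was tested against that background. Of the 10 genes tested among the NDR kinases, RASSF proteins and MOB relatives of the MST arm, 2 were higher and 0 lower. *Rassf6*, a RASSF scaffold that binds MST kinases, went from 0.315 and 0.196 CPM in GFP and 0.356 and 0.546 in YAP6SA to 7.29 and 5.55 in YAP5SA (log2 fold change 4.59, SE 0.59), and like *Wwc1* it was kept for testing only through YAP5SA and had to differ. *Mob3c* was higher by 0.75. Of 10 MAP4K and TAO kinases, which can act on LATS beside the MST kinases, only *Map4k5* was called (0.61 against GFP and 0.84 against YAP6SA). Of 18 subunits of STRIPAK, the phosphatase complex that turns MST kinases off, 0 were called in any comparison, and the median log2 fold change in YAP5SA against GFP was 0.01, with 1 gene at an unadjusted p under 0.05 in each comparison with GFP, and 3 in YAP5SA against YAP6SA.

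Of 8 LATS inhibitors and ubiquitin ligases, 2 were higher in YAP5SA than in GFP and 0 lower, beside 12.8% higher and 9.18% lower among all genes. The 2 genes encode LIM proteins that bind and inhibit LATS. *Ajuba* had 85.7 and 66.7 CPM in GFP, 49.3 and 84.4 in YAP6SA, and 187 and 358 in YAP5SA (log2 fold change 1.74, SE 0.27, adjusted p = 0.00261). *Wtip* had 75.8 and 57.6, 76.4 and 73.3, and 182 and 253 CPM (1.70, SE 0.20, adjusted p = 0.000758). *Siah2*, a ubiquitin ligase that targets LATS2, had 11.0 and 15.7 CPM in GFP, 36.5 and 25.8 in YAP6SA, and 17.5 and 13.6 in YAP5SA. It was lower in YAP5SA than in YAP6SA by -1.003 (adjusted p = 0.0331), and both YAP6SA libraries were above the other 4, but its log2 fold change of 1.21 in YAP6SA against GFP did not pass the threshold (adjusted p = 0.328).

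Of 11 membrane inputs tested of 14, 6 were higher in YAP5SA than in GFP and 0 lower, beside 12.8% higher among all genes, with a median log2 fold change of 0.63. *Crb2*, a polarity gene, rose by 4.33 (SE 0.55), *Amot* by 2.92 (SE 0.52) and *Amotl2* by 2.83 (SE 0.25), the latter 2 encoding angiomotins, which bind YAP and help activate LATS. *Crb2* and *Amot* were kept for testing only through YAP5SA, so their part in the count and the median was set by the filter. *Fat1* and *Ptpn14* rose by 0.88 and 0.59. Of the 7 genes for YAP, TAZ, the TEAD factors and VGLL4, 3 were higher and 0 lower. *Tead4* rose by 3.37, *Vgll4*, whose product competes with YAP for TEAD, by 1.66 and *Tead1* by 0.77, whereas *Yap1* and *Wwtr1* were not called. In a signature of YAP and TEAD targets, 13 of the 20 genes tested were higher and 0 lower, with a median log2 fold change of 1.04, led by *Ccn2* (3.33) and *Amotl2* (2.83). That signature holds *Lats2* itself, as well as genes of the membrane list, among them *Amotl2* and *Ptpn14*, so such genes are listed in both places.

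**Figure D4:**
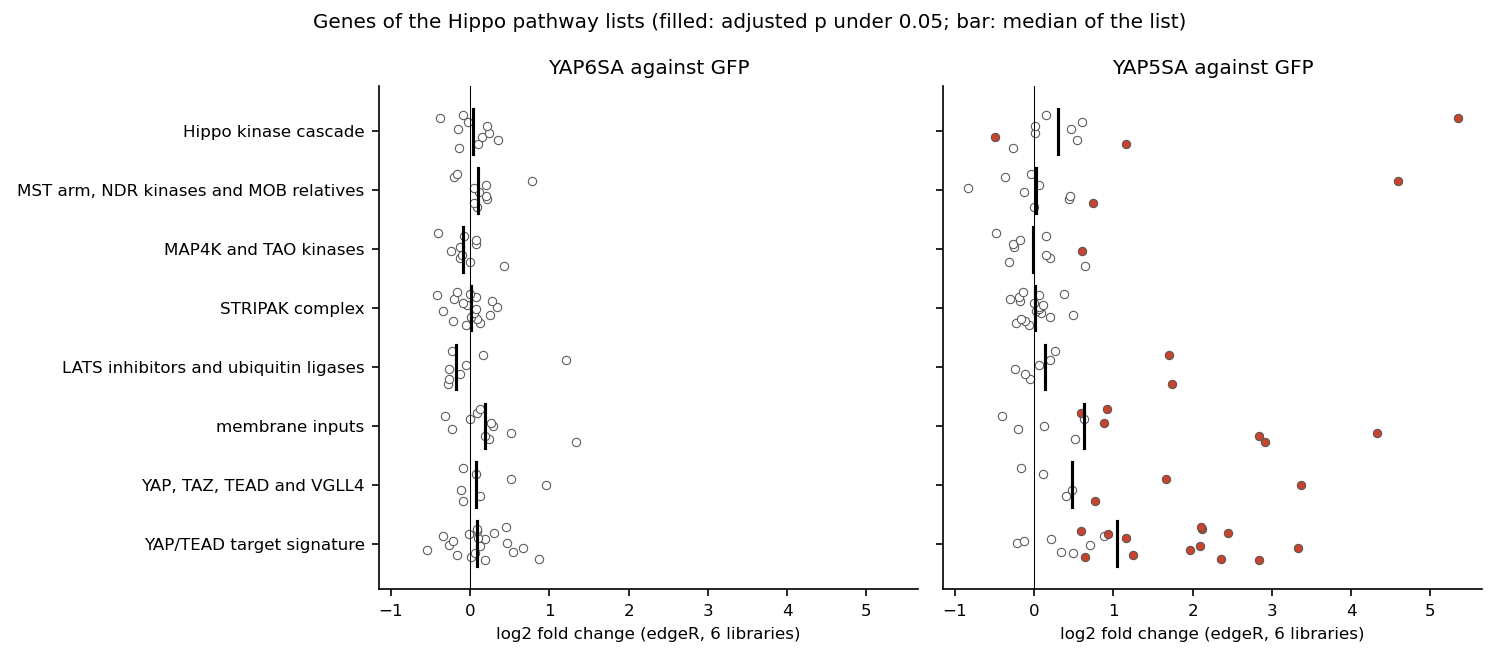
Log2 fold change (x axis, the same scale in both panels) of each tested gene of the cascade and of 7 other lists of the pathway, in YAP6SA and YAP5SA against GFP. Each point is a gene, filled where its adjusted p was under 0.05, and the bar is the median of the list. No point is filled for YAP6SA, and 0 of the 18 STRIPAK genes are filled for YAP5SA, where the target signature has 13 of 20 filled.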

How the data were processed

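Counts per gene were deposited for 6 libraries of PCM-1-bound CM nuclei, as whole numbers with no normalization. The authors mapped reads from poly-A, non-directional libraries with STAR to mm10 (Ensembl GRCm38.94). GENCODE M21 gave symbols and coordinates for 54495 of 54532 gene IDs. As in the study, genes needed a median log2 CPM over 1 in a group (13323 kept). They were fitted with edgeR 4.0.16 in R 4.3.3 (TMM scaling, quasi-likelihood test, terms for batch and group, all 6 libraries), with Benjamini-Hochberg adjustment over all genes kept and a threshold of 0.05. In the labels each replicate number equals its batch number, so the batch term pairs libraries, which deviated together within batches (correlations across genes of 0.394, 0.107 and 0.18). No library was a copy, since chi-square per degree of freedom between replicates was 25.3, 28.7 and 39.6. Alternatives changed the scaling (RLE, upper quartile), the filter (none, or 10 counts in every library), the test (likelihood ratio, limma-voom with limma 3.58.1, DESeq2 1.42.0), the batch term, the threshold (0.01, 0.1) or the libraries (the 4 compared, or 1 left out, when a lone library was assumed to vary like the others). With 2 libraries per group, p-values measure the spread between these libraries. Counting intervals are exact or Wilson 95% intervals. Reads on no gene or on several were outside library sizes. The pipeline was also run on simulated counts in which far fewer genes changed than were called in YAP5SA. That run does not show how well changes such as those here are found. The text names all 10 cascade genes, *Yap1* and, per other list and comparison, up to 2 called genes of largest change each way. Other named genes (*Fat1*, *Ptpn14*, *Tead1*, *Wwtr1*, markers) were picked after their values were seen. The genes and lists were chosen with earlier results of these data known.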

Additional observations from a re-analysis of the deposited data

Results flagged for a closer look

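The effects of YAP5SA and YAP6SA, each measured against the same GFP libraries, differed for 3 of the 10 cascade genes when the difference itself was tested (edgeR quasi-likelihood test, YAP5SA against YAP6SA, adjusted p under 0.05). The difference in log2 fold change was 1.06 for *Lats2*, 5.72 for *Wwc1* and -0.63 for *Mob1b*. *Wwc1* was kept for testing only through its level in YAP5SA, so its value is a description and not a test. The YAP5SA libraries were on the same side of both YAP6SA libraries in each batch for all 3 genes. Among all genes tested, 14.7% differed in this way. With 2 libraries per group, no test for an outlying library could be made.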

How the results depend on the processing

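*Lats2* was called in YAP5SA against GFP and against YAP6SA in every alternative fit and with each library left out. For *Wwc1*, which the filter kept only through YAP5SA, such calls say nothing of stability. With no filter on low counts, where that selection plays no part, its log2 fold changes were 5.35 against GFP and 5.73 against YAP6SA. It was not tested where 10 counts were required in every library, and there 1 gene was called in YAP5SA against GFP. In YAP5SA against YAP6SA, 5 genes were called by the likelihood ratio test and 5 at a threshold of 0.1, since *Stk4* and *Sav1* were added. Without the replicate block, the pairing by batch, the calls in YAP6SA against GFP, YAP5SA against GFP and YAP5SA against YAP6SA were 0, 2 and 2, since *Mob1b* was lost (adjusted p = 0.111 and 0.0678), and no other call of these genes changed. YAP6SA against GFP gave 0 cascade genes under every alternative, while the calls over all genes went from 6 higher and 0 lower to 0 without the block, 40 and 15 with DESeq2, 54 and 28 by the likelihood ratio test, 109 and 36 with no filter, and 198 and 78 with only the 4 libraries compared. In YAP5SA against GFP, 1708 genes higher and 1223 lower became 1331 and 759 without the block.

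Signs turned only for changes that were not called. With each library left out, the log2 fold change in YAP6SA against GFP ran from -0.32 to 0.66 for *Stk3*, -0.14 to 0.082 for *Stk4*, -0.14 to 0.35 for *Lats2*, -4.27 to 0.93 for *Wwc1* and -0.22 to 0.028 for *Wwc2*. In YAP5SA against GFP it ran from -0.50 to 0.43 for *Stk3* and -0.076 to 0.11 for *Nf2*, and in YAP5SA against YAP6SA from -0.69 to 0.29 for *Stk3*. The fit of only the 4 libraries compared gave -0.025 for *Stk3* in YAP5SA against GFP. The cause of these changes was not tested. Counting depth limits *Wwc1* in GFP and YAP6SA, where libraries held 1 to 23 counts.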
